A study of Mus musculus with 6 samples.

Results

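The genes described here are 10 markers of neutrophils and of polymorphonuclear myeloid-derived suppressor cells (PMN-MDSC), chosen by symbol: S100a8, S100a9, Ly6g, Csf3r, Retnlg, Trem1, Camp, Ngp, Ltf and Lcn2. Of the 10, 8 had a row among the 21718 genes of the count table, and 7 passed the filter on low counts. Camp and Ngp had no row in the table, so only their upstream bases were examined here. The 8 genes with a row were measured by poly-A RNA sequencing of whole castration-resistant prostate tumours from mice. F10 encodes coagulation factor X, and the design asked what the F10 of immune cells contributes.

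All recipients were of 1 prostate tumour model. They received 900 rad at 6 weeks of age and then a transplant of donor marrow. Castration followed at 8 weeks of age, and tumours were taken 16 weeks after it. In the F10-deleted group (3 samples, numbered 1, 3 and 4) the donors were F10fl/fl; LysM-Cre+. In the F10-intact group (3 samples with the same numbers) the donors were F10fl/fl without Cre. The floxed alleles were thus common to both groups of donors, and the tumour model, irradiation and castration to all recipients. LysM-Cre is driven from the lysozyme locus, which is active in macrophages, monocytes and neutrophils, so neutrophils are among the cells in which F10 was targeted. How much of the blood came from the donors is not given in the sources used here. Whether each sample came from its own animal is not stated, so p-values here reflect only how these samples spread, which may be technical.

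Neutrophils mature in the bone marrow through stages that leave a record in their granules. Promyelocytes fill primary granules with Mpo, Elane, Prtn3 and Ctsg. Myelocytes then fill secondary granules with lactoferrin (Ltf), lipocalin 2 (Lcn2), the cathelicidin Camp and Ngp, and later cells make gelatinase granules. Mature cells that leave the marrow carry the receptors Csf3r and Cxcr2 and large amounts of S100a8 and S100a9, while transcription of the granule genes has largely ended. PMN-MDSC are neutrophils with T cell suppressing activity that gather in tumours. Several of the genes have a second source. Epithelial cells make Lcn2 and Ltf, and stressed or squamous epithelium can make S100a8 and S100a9.

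Totals ranged from 9237308 to 11821588 counts per sample. Mitochondrial transcripts took 3.14% to 4.58% of counts in F10-deleted samples and 2.45% to 5.75% in F10-intact samples. F10-intact sample 4 stood apart on the first principal component (49.1% of variance), so values without that sample are given beside the marker genes. It also had the highest mitochondrial share (5.75%), the fewest genes detected (20143) and the lowest TMM scaling factor (0.918). The part of these traits in its marker levels was not tested. For the medians of the gene lists, ranges with a sample left out are in the closing section. The targeted gene F10 had 7, 4 and 9 counts in F10-deleted samples and 2, 6 and 17 counts in F10-intact samples, an overlap at few counts, and whole tumours also hold recipient cells with an unaltered F10, so its level does not check the labels. The labelled tissue was checked with 8 epithelial genes, which summed to 6942 to 8150 CPM (counts scaled to the library size) in F10-deleted samples and 7241 to 7693 CPM in F10-intact samples. Of prostate genes, Hoxb13 was at 35.1 to 60.8 CPM in F10-deleted and 76.0 to 211 CPM in F10-intact samples, and Pbsn at 4.52 to 20.6 CPM in F10-deleted and 37.2 to 62.6 CPM in F10-intact samples. The leading difference between the groups in the fixed lists was in 7 skeletal muscle genes, which summed to 675 to 1688 CPM in F10-deleted and 12.4 to 104 CPM in F10-intact samples. Its part in the results on the markers was not tested.

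The bases upstream of the RefSeq start are shown for S100a8 and S100a9, which varied together, and for Lcn2 and Ltf, which did not. They were taken from RefSeq on GRCm38.p6, and bases that GENCODE annotates as untranslated were left out. The RefSeq start of Lcn2 lies downstream of the outermost GENCODE start, so its stretch is inside the GENCODE gene and overlaps an exon of a longer transcript there. Capitals mark matches on either strand to TTNNGNAA, a loose form of the site of C/EBP factors, the family that drives granule gene transcription.
S100a8 (chr3:90668821-90668977, plus strand): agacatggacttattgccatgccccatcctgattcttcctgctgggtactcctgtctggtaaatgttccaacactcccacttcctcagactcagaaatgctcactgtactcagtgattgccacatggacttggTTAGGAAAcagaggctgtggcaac
S100a9 (chr3:90695722-90695971, minus strand): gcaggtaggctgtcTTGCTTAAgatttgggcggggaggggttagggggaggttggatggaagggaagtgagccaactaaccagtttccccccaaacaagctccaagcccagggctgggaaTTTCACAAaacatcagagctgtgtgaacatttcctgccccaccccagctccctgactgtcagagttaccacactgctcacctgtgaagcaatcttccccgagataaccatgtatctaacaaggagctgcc
Lcn2 (chr2:32387798-32387989, minus strand): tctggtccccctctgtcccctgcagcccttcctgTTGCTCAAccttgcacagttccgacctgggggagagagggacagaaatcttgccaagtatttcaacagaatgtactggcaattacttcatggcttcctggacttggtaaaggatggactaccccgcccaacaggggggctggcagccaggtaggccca
Ltf (chr9:111019042-111019270, plus strand): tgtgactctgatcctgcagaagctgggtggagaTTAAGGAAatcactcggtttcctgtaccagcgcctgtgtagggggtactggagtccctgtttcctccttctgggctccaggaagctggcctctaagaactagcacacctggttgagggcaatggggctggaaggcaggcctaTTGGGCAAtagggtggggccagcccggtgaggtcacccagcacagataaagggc

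All 10 genes matched a RefSeq window of the 250 bases before the start, 11 windows in all, as Ly6g matched more than once. A gene counted if any of its windows held a match, whereas the shares over all genes are of windows. Whole windows were searched, including untranslated bases left out above, so a match can lie in bases not shown. The C/EBP letters lay in the windows of 8 of the 10 genes, all but Camp and Csf3r, against 36.8% of 32851 windows of the same length. The core GAGGAA of PU.1, a myeloid factor, lay in 6 of 10 genes, against 23.3% of windows. The letters TATAAA lay in those of S100a8 and Ly6g, against 12.4% of windows. TGANTCA, the AP-1 site, was in 0 of 10 (6.75% of windows), and the NF-kB consensus was in 0 of 10 (3.90% of windows), which says only that those letters were not in these windows. A match is a run of letters and not a site shown to be bound.

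Of the 7 genes tested, 0 passed the edgeR test over 15963 genes, where 0.0439% of all genes passed in either direction. DESeq2 called 1 of them, Lcn2, lower in the F10-deleted group, and limma-voom called 0. Over the whole table DESeq2 called 355 genes higher and 132 lower, so a call by DESeq2 was far less rare than one by edgeR. At an unadjusted p under 0.05, edgeR had Lcn2, Csf3r and S100a8 lower, 3 of the 7, where 4.74% of all genes met that rule. Lcn2 was also the only member of the 7 whose F10-deleted samples all lay below the F10-intact ones, a pattern of 7.67% of all genes. The estimate was below 0 for 6 of the 7 and above 0 for Ltf. For those 6 the F10-deleted sample was below the F10-intact sample of the same number in all 3 numbers, a pattern of 21.2% of all genes. In bulk tissue, fewer cells of a type and less RNA per cell cannot be told apart.

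**Figure D1:**
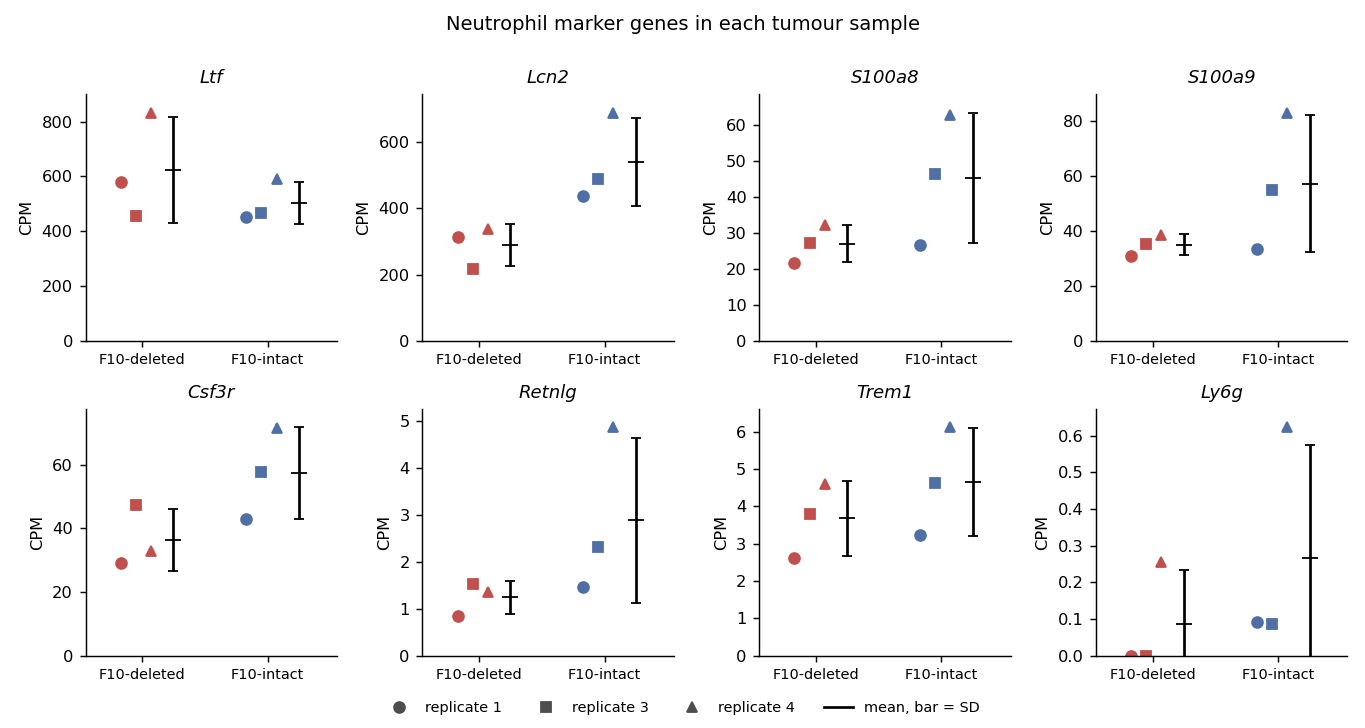
Level of each marker gene in CPM (vertical axis, from 0, a separate scale per gene) in the F10-deleted and F10-intact tumour samples. Symbols are single samples by number, and the black bar is the mean with SD of 3. Lcn2 is the only gene with no overlap between groups, and F10-intact sample 4 is the highest sample for each gene but Ltf.

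Among the genes of mature cells, S100a8 and S100a9 encode the subunits of calprotectin, a calcium- and zinc-binding protein of the neutrophil cytosol that also signals through Tlr4 and Ager. S100a8 (ENSMUSG00000056054, chromosome 3, 90668978 to 90670035, plus strand, GRCm38) had 21.7, 27.2 and 32.2 CPM in F10-deleted samples 1, 3 and 4. It had 26.7, 46.5 and 62.9 CPM in F10-intact samples 1, 3 and 4. F10-intact sample 1 lay inside the range of the F10-deleted samples, and the other two lay above it. With edgeR the log2 fold change was -0.75 ± 0.31 (SE, adjusted p = 0.44), and leaving out F10-intact sample 4 gave -0.44.

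S100a9 (ENSMUSG00000056071, chromosome 3, 90692632 to 90695721, minus strand) had 31.0, 35.4 and 38.7 CPM in F10-deleted samples and 33.6, 55.0 and 83.2 CPM in F10-intact samples, in the same order of numbers. Again F10-intact sample 1 was within the F10-deleted range. The log2 fold change was -0.71 ± 0.31 (SE, edgeR adjusted p = 0.46). Leaving out F10-intact sample 4 gave -0.34, and leaving out sample 1 of that group gave -0.94. The ratio of S100a8 to S100a9 CPM was nearly fixed, at 0.766 ± 0.0644 in F10-deleted and 0.799 ± 0.0447 in F10-intact samples (SD, n = 3 each), with overlap. The subunit genes thus kept nearly the same proportion while the level of S100a9 ranged between samples from 31.0 to 83.2 CPM.

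Csf3r (ENSMUSG00000028859, chromosome 4, 126024550 to 126044440, plus strand) encodes the receptor of granulocyte colony-stimulating factor, which drives neutrophil production and survival and is also on monocytes. It had 29.0, 47.4 and 32.9 CPM in F10-deleted samples and 42.9, 57.6 and 71.5 CPM in F10-intact samples. The groups overlapped only through F10-deleted sample 3. The log2 fold change was -0.65 ± 0.25 (SE, edgeR adjusted p = 0.393, 95% interval -1.23 to -0.08). With each sample left out in turn it stayed below 0 at -0.86 to -0.47, the upper end without F10-intact sample 4. The gene for its ligand, Csf3, was at the detection limit, with 1, 3 and 4 counts in F10-deleted samples and 8, 1 and 5 counts in F10-intact samples.

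Retnlg (ENSMUSG00000022651, chromosome 16, 48872621 to 48874496, plus strand) encodes a resistin-like secreted protein of mouse neutrophils, with paralogs among which the counting may split reads. It had 8, 18 and 16 counts in F10-deleted samples and 16, 27 and 47 counts in F10-intact samples, which gave 1.24 ± 0.357 CPM in F10-deleted and 2.89 ± 1.77 CPM in F10-intact samples (SD, n = 3 each). The estimate was the lowest of the tested genes, -1.19 ± 0.52 on the log2 scale (SE, adjusted p = 0.459 in edgeR). Leaving out F10-intact sample 4 gave -0.60, and its 4.87 CPM exceeded every other sample. At these counts the interval was wide, -2.40 to 0.01.

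Trem1 (ENSMUSG00000042265, chromosome 17, 48232768 to 48246924, plus strand, overlapping a processed pseudogene on the opposite strand) encodes an activating receptor of neutrophils and monocytes that signals through Tyrobp. It had 2.62, 3.81 and 4.60 CPM in F10-deleted samples and 3.23, 4.63 and 6.12 CPM in F10-intact samples. The groups interleaved. The log2 fold change was -0.33 ± 0.36 (SE, edgeR adjusted p = 0.8), and leaving out F10-intact sample 4 gave -0.09. Tyrobp was at 49.0 ± 1.68 CPM in F10-deleted and 65.4 ± 22.7 CPM in F10-intact samples (SD, n = 3 each, edgeR adjusted p = 0.591).

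Ly6g (ENSMUSG00000022582, chromosome 15, 75155240 to 75159126, plus strand) is the surface antigen by which mouse neutrophils are usually sorted, and it belongs to a family of near-identical genes whose reads the counting may split. It had 0, 0 and 3 counts in F10-deleted samples and 1, 1 and 6 counts in F10-intact samples. Both groups were at the edge of detection. The 3 against 8 counts gave a ratio of 0.385 with a 95% counting interval of 0.0657 to 1.603, and a difference was not detectable at this depth. The unfiltered edgeR log2 fold change was -1.40 ± 1.32 (SE, adjusted p = 0.811), and 0.01 without F10-intact sample 4.

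The secondary granule genes did not move together. Lcn2 (ENSMUSG00000026822, chromosome 2, 32384633 to 32388252, minus strand) encodes lipocalin 2, which binds the iron carriers of bacteria and is made by inflamed epithelium as well as by neutrophil precursors. It had 315, 218 and 337 CPM in F10-deleted samples and 439, 489 and 689 CPM in F10-intact samples. Every F10-deleted sample was below every F10-intact sample. The mean was 290 ± 63.3 CPM in the F10-deleted group and 539 ± 132 CPM in the F10-intact group (SD, n = 3 each). The edgeR log2 fold change was -0.90 ± 0.23 (SE, adjusted p = 0.228, 95% interval -1.44 to -0.35), while DESeq2 gave -0.89 with an adjusted p of 0.0168. Over the other scalings and filters, limma-voom and the replicate block, the adjusted p ranged from 0.179 to 0.247. With each sample left out the log2 fold change ranged from -1.02 to -0.68, the upper end without F10-intact sample 4. The edgeR adjusted p then ranged from 0.132 to 0.610.

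Ltf (ENSMUSG00000032496, chromosome 9, 111019271 to 111042767, plus strand) encodes lactoferrin, the iron-binding protein of secondary granules and of glandular secretions. It had 579.5, 455 and 833 CPM in F10-deleted samples and 454, 466 and 591 CPM in F10-intact samples. F10-deleted sample 4 stood above the rest, and F10-deleted samples 1 and 3 fell within the F10-intact range. The log2 fold change was 0.31 ± 0.24 (SE, edgeR adjusted p = 0.71). The estimate was 0.04 with F10-deleted sample 4 left out, and 0.52 with sample 3 of that group left out. Leaving out F10-intact sample 4 gave 0.43.

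**Figure D2:**
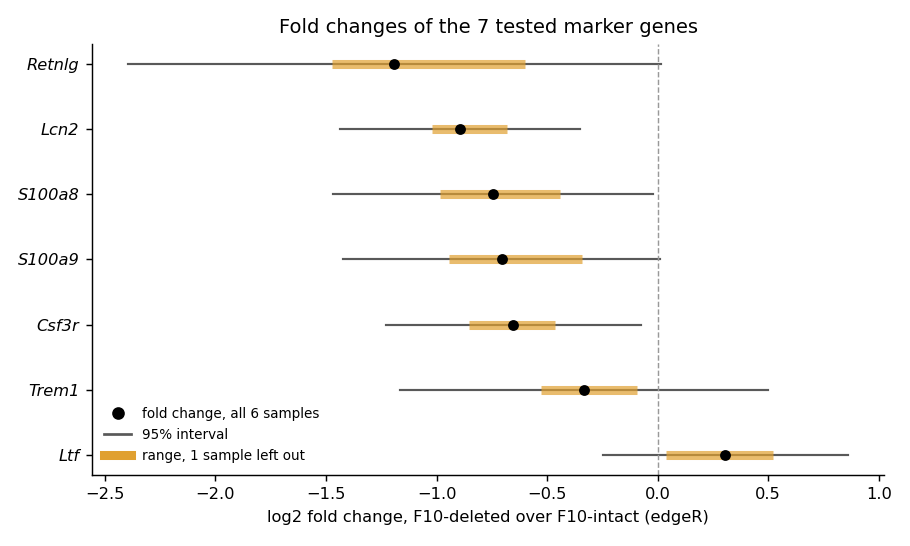
The edgeR log2 fold change of the 7 tested genes (horizontal axis, F10-deleted over F10-intact, 0 dashed). Black points are all 6 samples, grey lines 95% intervals, and orange bars the range with 1 sample left out. The intervals of Lcn2, S100a8 and Csf3r lie below 0, and Ltf alone has its point above 0.

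Within a sample, the ratio of Ltf to Lcn2 was 1.84, 2.09 and 2.47 in F10-deleted samples and 1.03, 0.952 and 0.857 in F10-intact samples. The groups did not overlap, and the mean was 2.13 ± 0.318 in F10-deleted and 0.948 ± 0.0885 in F10-intact samples (SD, n = 3 each). This ratio was chosen after its values were seen and carries no test. The share of gene pairs whose ratio separates the groups was not computed. The ratio of Lcn2 to S100a9 overlapped, at 8.34 ± 2.03 in F10-deleted and 10.1 ± 2.60 in F10-intact samples. In each group the level of Lcn2 relative to S100a9 was highest in sample 1, the sample where S100a9 was lowest.

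**Figure D3:**
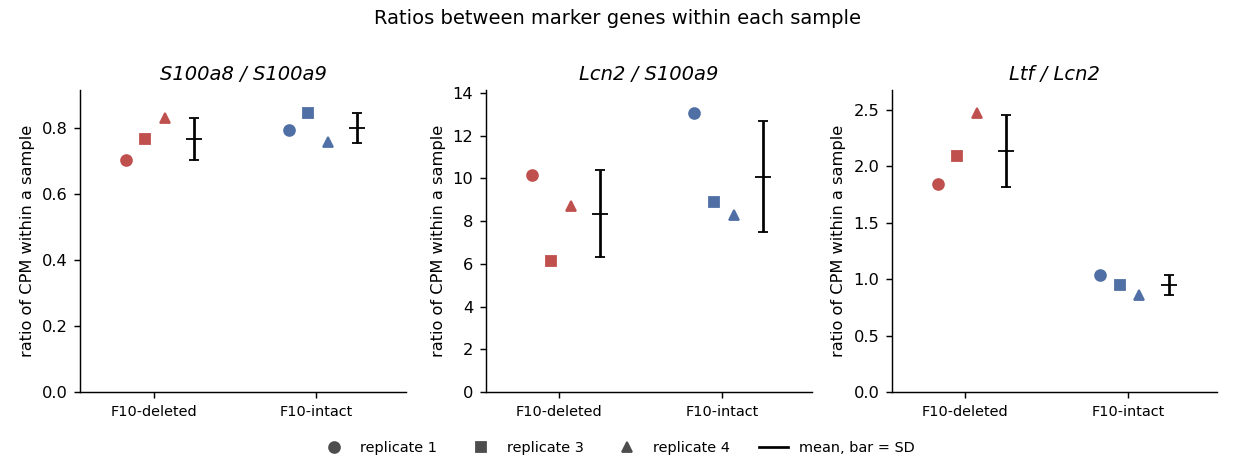
Ratios of CPM between marker genes within each sample (vertical axes, from 0), with F10-deleted samples left and F10-intact samples right in each panel, and mean with SD of 3. S100a8 to S100a9 stays between 0.702 and 0.846, while Ltf to Lcn2, chosen after its values were seen, does not overlap between the groups.

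Levels were compared between genes per kilobase of exon. In the F10-deleted group Ltf came first at 180 ± 55.9 CPM per kb, ahead of Lcn2 at 110 ± 24.1, S100a9 at 67.1 ± 7.44 and S100a8 at 38.9 ± 7.51 CPM per kb (SD, n = 3). In the F10-intact group Lcn2 came first at 206 ± 50.5 CPM per kb, ahead of Ltf at 146 ± 22.01, S100a9 at 110 ± 47.6 and S100a8 at 65.4 ± 26.2 CPM per kb. Neighbours in that order overlapped among F10-intact samples, whereas among F10-deleted samples none of these 4 did. Further down, Csf3r was at 10.1 ± 2.68 CPM per kb in F10-deleted and 15.9 ± 3.97 in F10-intact samples. Retnlg was at 2.10 ± 0.602 CPM per kb in F10-deleted and 4.87 ± 2.98 CPM per kb in F10-intact samples. Trem1 was at 1.23 ± 0.332 CPM per kb in F10-deleted and 1.56 ± 0.482 CPM per kb in F10-intact samples. Retnlg and Trem1 overlapped in F10-deleted samples only. Ly6g came last, at 0.0905 ± 0.157 CPM per kb in F10-deleted and 0.283 ± 0.327 CPM per kb in F10-intact samples.

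The stage of the cells was described with lists of other genes of each stage. Of 6 primary granule and progenitor genes, Mpo, Elane, Ctsg and Ms4a3 had no row in the table. Prtn3, a primary granule protease, had 2, 4 and 3 counts in F10-deleted samples and 2, 0 and 1 counts in F10-intact samples. Gfi1, a repressor that directs neutrophil fate and is also made by other cells, was at 1.804 ± 0.284 CPM in F10-deleted and 0.775 ± 0.452 CPM in F10-intact samples (edgeR adjusted p = 0.432). Among 7 other secondary granule genes, Fcnb and Cebpe had no row, and Cd177, Itgb2l and Chil3 had 0 to 5 counts in each of the 6 samples. Chil3, abundant in marrow neutrophil precursors, had 1 count in each group. Only Pglyrp1 and Olfm4 were tested, and both are also epithelial products. Olfm4, a glycoprotein, was at 270 ± 177 CPM in F10-deleted and 273 ± 92.8 CPM in F10-intact samples (edgeR adjusted p = 0.996). Pglyrp1, a peptidoglycan-binding protein, was at 147 ± 61.6 CPM in F10-deleted and 214 ± 63.4 CPM in F10-intact samples (edgeR adjusted p = 0.649). The cells from which Ltf, Lcn2, Pglyrp1 and Olfm4 transcripts came were not tested.

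Of 14 other genes of mature neutrophils, 12 were tested and 0 passed, with 9 below 0 and a median log2 fold change of -0.54, against -0.02 for all genes tested. Leaving out F10-intact sample 4 gave a median of -0.13. Cxcr2, the receptor for neutrophil chemokines, had 68, 102 and 104 counts in F10-deleted samples and 88, 138 and 148 counts in F10-intact samples, or -0.52 ± 0.28 on the log2 scale (SE, adjusted p = 0.561 in edgeR). The Cxcr2 ratio to S100a9 was 0.234 ± 0.00791 in F10-deleted and 0.214 ± 0.0286 in F10-intact samples (SD, n = 3 each). Stfa2l1, a stefin of mouse neutrophils, was at 0.542 ± 0.295 CPM in F10-deleted and 1.27 ± 0.0260 CPM in F10-intact samples (edgeR adjusted p = 0.436). Asprv1, an aspartic protease, was at 2.62 ± 0.382 CPM in F10-deleted and 4.31 ± 1.77 CPM in F10-intact samples (edgeR adjusted p = 0.55). Padi4, a citrullinating enzyme needed for neutrophil extracellular traps, ran the other way, at 85.7 ± 19.5 CPM in F10-deleted and 53.2 ± 9.81 CPM in F10-intact samples (edgeR adjusted p = 0.302). Cxcr2 was far lower, at 8.21 ± 0.936 CPM in F10-deleted and 11.8 ± 3.61 CPM in F10-intact samples. The cells from which Padi4 transcripts came were not tested. The gelatinase gene Mmp9 had 131, 230 and 145 counts in F10-deleted samples and 133, 167 and 108 counts in F10-intact samples (edgeR adjusted p = 0.738). Mmp8, a neutrophil collagenase, had 2 to 7 counts per sample over both groups.

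Genes associated with PMN-MDSC did not share a direction. Of 13, 12 were tested and 0 passed, 7 were higher and 5 lower in estimate, and the median log2 fold change was 0.12. Wfdc17, a secreted protein of activated myeloid cells, was at 17.4 ± 1.99 CPM in F10-deleted and 43.0 ± 27.4 CPM in F10-intact samples (edgeR adjusted p = 0.358). Arg2, a mitochondrial arginase, was at 28.7 ± 4.17 CPM in F10-deleted and 42.0 ± 12.6 CPM in F10-intact samples (edgeR adjusted p = 0.463). Arg1, the cytosolic arginase of suppressive myeloid cells, was at 94.2 ± 10.6 CPM in F10-deleted and 62.2 ± 14.3 CPM in F10-intact samples (edgeR adjusted p = 0.308). Nos2, inducible nitric oxide synthase, was at 3.98 ± 0.521 CPM in F10-deleted and 2.12 ± 0.556 CPM in F10-intact samples (edgeR adjusted p = 0.375). The arginases thus had opposite signs, and Arg1 and Nos2 did not overlap between groups, with F10-deleted samples higher, a pattern of 8.99% of all genes.

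Genes of neutrophil recruitment and growth had 9 of 14 tested and 0 passed. Of the 9, 3 were above 0 and 6 below, with a median log2 fold change of -0.08. With a sample left out that median ranged from -0.37 without F10-deleted sample 4 to 0.18 without F10-deleted sample 3. Cxcl1, a ligand of Cxcr2, was at 19.7 ± 9.08 CPM in F10-deleted and 44.4 ± 26.4 CPM in F10-intact samples, or -1.17 ± 0.48 on the log2 scale (SE, adjusted p = 0.44 in edgeR). Cxcl2 was at 41.8 ± 10.1 CPM in F10-deleted and 64.8 ± 41.5 CPM in F10-intact samples (edgeR adjusted p = 0.656). Cxcl5, a further Cxcr2 ligand, was at 339 ± 72.2 CPM in F10-deleted and 371 ± 82.3 CPM in F10-intact samples (edgeR adjusted p = 0.895). The chemokine gene Cxcl15 ran the other way, at 320.5 ± 64.8 CPM in F10-deleted and 240 ± 114.5 CPM in F10-intact samples. Its log2 fold change was 0.42 ± 0.33 (SE, edgeR adjusted p = 0.718). Csf2 and Il6 had at most 6 counts in a sample, and Il17a and Il17c had no row. Among partners and regulators 9 of 10 were tested and 0 passed, with a median of -0.17. Slc22a17, a receptor for lipocalin 2, was at 56.4 ± 12.7 CPM in F10-deleted and 77.3 ± 16.2 CPM in F10-intact samples (edgeR adjusted p = 0.516). Cebpa, a C/EBP factor of granulocyte commitment, was at 39.4 ± 2.36 CPM in F10-deleted and 28.5 ± 10.6 CPM in F10-intact samples (edgeR adjusted p = 0.569).

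Epithelial sources were examined through 12 antimicrobial genes of epithelium, of which 10 were tested and 0 passed, with a median log2 fold change of -0.37, which was -0.13 with F10-intact sample 4 left out. The acute-phase genes Saa3 and Saa1 had the lowest estimates. Saa3 had 33, 30 and 249 counts in F10-deleted samples and 210, 1738 and 1944 counts in F10-intact samples, or -3.75 ± 1.13 on the log2 scale (SE, adjusted p = 0.309 in edgeR). Saa1, a near-identical copy of Saa2 with which reads may be shared, was at 8.59 ± 9.21 CPM in F10-deleted and 76.7 ± 59.0 CPM in F10-intact samples (edgeR adjusted p = 0.349). Both overlapped between groups, with F10-intact sample 1 the lowest of its group, as for S100a8. Muc1, a membrane mucin, was at 29.96 ± 4.36 CPM in F10-deleted and 14.9 ± 4.88 CPM in F10-intact samples (edgeR adjusted p = 0.199), and C3, a complement protein, at 223 ± 28.1 CPM in F10-deleted and 145 ± 35.2 CPM in F10-intact samples (edgeR adjusted p = 0.301). The antimicrobial genes summed to 4999 to 6645 CPM in F10-deleted and 4285 to 13230 CPM in F10-intact samples, an overlap. The largest part of these sums was 1 gene, Pigr. It was at 3567 ± 408 CPM in F10-deleted and 6077 ± 3583 CPM in F10-intact samples (SD, n = 3 each, edgeR adjusted p = 0.582).

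The epithelium list itself was uneven. Of its 8 genes, all tested, 0 passed, and the median log2 fold change was 0.14. The basal genes Trp63, Krt5 and Krt14 were higher at an unadjusted p under 0.05 in edgeR, a rule met by 981 of all 15963 genes tested. Trp63 was at 74.0 ± 17.5 CPM in F10-deleted and 40.6 ± 12.2 CPM in F10-intact samples (edgeR adjusted p = 0.301). Its groups did not overlap, with F10-deleted samples higher, a pattern of 8.99% of all genes. Krt5 was at 633 ± 160 CPM in F10-deleted and 303 ± 145 CPM in F10-intact samples (edgeR adjusted p = 0.333), and Krt14 at 231 ± 72.7 CPM in F10-deleted and 133 ± 57.2 CPM in F10-intact samples (edgeR adjusted p = 0.457). Epcam, an adhesion gene of the list used as a denominator, was at 1175 ± 159.5 CPM in F10-deleted and 1187 ± 170 CPM in F10-intact samples (SD, n = 3 each). The ratio of Lcn2 to Epcam was 0.292, 0.200 and 0.248 in F10-deleted samples and 0.427, 0.419 and 0.505 in F10-intact samples, with no overlap. The ratio of Ltf to Epcam was 0.523 ± 0.0983 in F10-deleted and 0.424 ± 0.0227 in F10-intact samples (SD, n = 3 each), with overlap. That of S100a9 to Epcam was 0.0287, 0.0326 and 0.0285 in F10-deleted samples and 0.0327, 0.0471 and 0.0609 in F10-intact samples. These did not overlap, but only by 0.0326 against 0.0327, and S100a9 alone and its ratio to Ptprc overlapped. Epcam was chosen after its values were seen, and no share over all genes was computed for such ratios. Squamous genes, a possible source of S100a8 and S100a9, summed to 211 to 617 CPM in F10-deleted and 84.9 to 339 CPM in F10-intact samples. Of the 10 genes, 7 were tested, 0 passed and 5 were above 0, and the median log2 fold change was 1.48. The stress keratin Krt16 was at 2.45 ± 0.832 CPM in F10-deleted and 0.647 ± 0.199 CPM in F10-intact samples (edgeR adjusted p = 0.176), and Krt6a was at 35.7 ± 7.42 CPM in F10-deleted and 12.8 ± 6.43 CPM in F10-intact samples (edgeR adjusted p = 0.218). Krt10 and Krt13, chosen after their values were seen, had estimates of -1.49 and -0.23 on the log2 scale, and F10-intact sample 1 had a squamous sum above those of F10-deleted samples 1 and 4. The part of squamous epithelium in the levels of S100a8 and S100a9 was not tested.

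Other leukocytes gave the setting. Ptprc, the pan-leukocyte gene CD45, was at 44.7 ± 5.75 CPM in F10-deleted and 51.4 ± 8.17 CPM in F10-intact samples (edgeR adjusted p = 0.734). The ratio of S100a9 to Ptprc was 0.699, 0.907 and 0.766 in F10-deleted samples and 0.798, 0.960 and 1.52 in F10-intact samples, an overlap that left F10-intact sample 4 highest. Of 12 monocyte and macrophage genes, which share Csf3r and Trem1 with neutrophils, 11 were tested and 0 passed, with a median log2 fold change of -0.14. They summed to 404 to 502 CPM in F10-deleted and 454 to 515 CPM in F10-intact samples. Of 14 genes of other leukocytes 12 were tested and 0 passed, with a median of -0.11 and sums of 71.3 to 104 CPM in F10-deleted and 89.6 to 102 CPM in F10-intact samples. The eosinophil gene Epx and the basophil gene Mcpt8 had no row. Erythroid and platelet genes, a sign of blood in the tissue, summed to 27.5 to 45.7 CPM in F10-deleted and 29.7 to 64.6 CPM in F10-intact samples, with 6 of 7 tested, 0 passed and a median of -0.54. Adipocyte genes summed to 11.3 to 123 CPM in F10-deleted and 2.28 to 26.6 CPM in F10-intact samples.

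**Figure D4:**
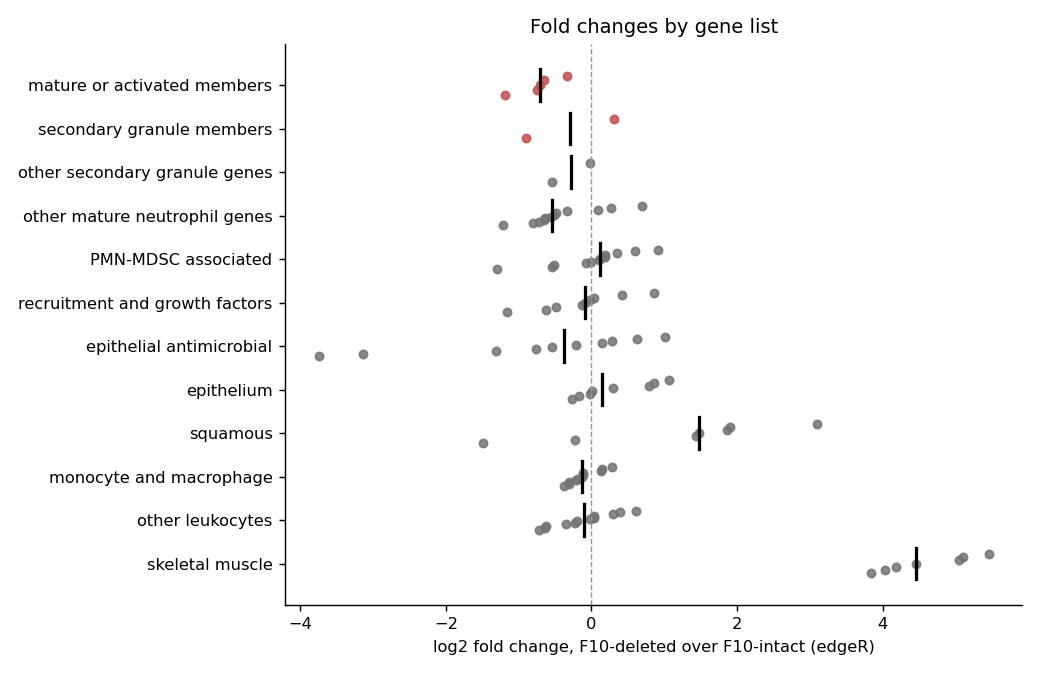
The edgeR log2 fold change (horizontal axis, F10-deleted over F10-intact, 0 dashed) of each tested gene, by gene list. Points are genes, red for the 7 tested marker genes and grey for the other lists, and black bars are medians. The mature or activated markers lie between -1.19 and -0.33, the other mature neutrophil genes have a median of -0.54, and skeletal muscle genes have one of 4.46.

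The patterns of S100a9 and Lcn2 over the 6 samples were compared with those of all tested genes of at least 1 CPM, 15602 genes, by the root mean square difference of centred log2(CPM + 0.5) values. The nearest to S100a9 were Acss1, a mitochondrial acetyl-CoA synthetase, at 0.05 log2 units, Cd164, a sialomucin, at 0.07, and Tspan13, a tetraspanin, at 0.07. For S100a9 and Lcn2 alike, unnamed gene models and immune receptor segments were passed over in naming the nearest genes but counted in the order. S100a8 was the nearest of the other markers at 0.09 and took place 8 in the order. Retnlg took place 185, Trem1 381, Csf3r 488 and Lcn2 1141. The nearest to Lcn2 were H2-T-ps, a pseudogene of the histocompatibility region, at 0.06, Nucb2, a calcium-binding secreted protein, at 0.07, and Rorb, a nuclear receptor, at 0.09. Among the markers S100a9 was the nearest to Lcn2, at 0.32 and place 556, and Ltf the farthest, at 0.60 and place 8841.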

How the data were processed

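The values deposited by the authors are unnormalised counts of reads, 1 table with a row per Ensembl identifier and a column per sample. The libraries were strand-specific, from poly-A RNA, sequenced from 1 end over 120 bases, per the labels' protocols. STAR 2.7.10a, the build GRCm38 and DESeq2 (no role given) are named per the submitters' processing notes. Neither the counting program nor its strand setting is named there. Symbols were found for 21592 of 21718 identifiers, and gene models are GENCODE M21.

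The test was the edgeR 4.0.16 quasi-likelihood test (R 4.3.3, robust, TMM scaling, filterByExpr with a minimum count of 10), with Benjamini-Hochberg adjustment over 15963 genes at 0.05. Each fold change has F10-deleted samples on top. CPM uses the TMM factors, and per kb values use exon union lengths. Intervals on counts cover counting error only. Alternatives were RLE and upper quartile scaling, other filters, DESeq2 1.42.0, limma-voom (limma 3.58.1), a replicate block, each sample left out in turn and a looser adjusted p of 0.1.

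The genotype of the recipients is not reported here. The members and lists were chosen with earlier results of these data known. Genes named are the members, the 3 nearest in pattern to S100a9 and to Lcn2, and of the lists those at or near 0 and 2 to 4 with the smallest p, with none named from the monocyte and macrophage, erythroid and platelet, skeletal muscle and adipocyte lists. Those named outside this rule, after their values were seen, are Hoxb13, Pbsn, Epcam, Ptprc, Mmp9, Cxcl5, Pigr, Krt10 and Krt13. Deviations of same-numbered samples from the means of their groups had correlations of 0.350, 0.135 and 0.181 for numbers 1, 3 and 4. All were over the threshold of 0.1, so the numbers were treated as pairs in a second fit. Correlations between different numbers were not computed, so these values do not show that the numbers are pairs. Chi-square per degree of freedom between samples of a group was 22.3 to 77.5, so no sample was counted as a repeat of another.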

Additional observations from a re-analysis of the deposited data

How the results depend on the processing

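The tested members kept their direction under every alternative run, and 0 of them were called except by DESeq2, which called 1, Lcn2. With the replicate block the log2 fold changes were -0.89 for Lcn2, -0.69 for S100a8 and -0.62 for S100a9, and no call on a member changed. Ly6g, with 3 counts over F10-deleted and 8 over F10-intact samples, ranged from -4.52 to 0.0139 with a sample left out, the upper end without F10-intact sample 4. The count of genes called over the table, 7 higher and 0 lower, was 355 and 132 with DESeq2, 2 and 0 with limma-voom, 2 and 0 with the 1 CPM filter, 1 and 1 with the replicate block and 84 and 1 at an adjusted p under 0.1. With a sample left out it ranged from 0 to 56 higher and from 0 to 16 lower, the upper ends without F10-intact sample 1. List medians also ranged with a sample left out: -0.64 to -0.13 for the other mature neutrophil genes, -0.36 to 0.0016 for partners and regulators, -0.37 to 0.18 for recruitment (0.03 without F10-intact sample 4), -0.07 to 0.18 for PMN-MDSC genes, -0.47 to -0.13 for epithelial antimicrobial genes, 0.14 to 0.26 for epithelium, 1.35 to 1.94 for squamous genes, -0.18 to -0.06 for monocytes and macrophages, -0.19 to 0.01 for other leukocytes, -0.83 to -0.30 for erythroid and platelet genes, 3.92 to 6.70 for skeletal muscle and 2.41 to 4.36 for adipocytes. The cause of these shifts was not tested. Depth limits Ly6g, Retnlg and the granule precursor genes, which had few counts.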
